A study of Mus musculus with 4 samples.

Results

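Described here are 36 writers and erasers of histone lysine methylation among the 23521 genes of the expression table. They were taken from a named list and comprise 22 writers (methyltransferases and core subunits of Polycomb repressive complex 2, PRC2) and 14 erasers (demethylases). All 36 were matched by current symbol, and all 36 reached the level needed for testing, a mean of 1 RPKM over the 4 libraries. RPKM is a read density, scaled to the length of the transcript and to the size of the library. The RNA was poly(A) RNA of Hepa1-6 cells, a mouse hepatoma line, sequenced in 4 libraries. Cells of both groups were transduced with lentivirus and then held in puromycin (4 μg/ml) for 3 weeks. Control (n = 2 libraries, genotype labelled wild type) carried a scrambled shRNA, and Chd1KD (n = 2 libraries) carried an shRNA directed at Chd1. Whether replicate libraries stem from independent transductions is not stated, so a p-value here reflects library-to-library spread that could be technical. No shRNA sequence is given in the labels.

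Histone lysine methylation is written by SET-domain enzymes and by DOT1L, and is removed by amine oxidases of the KDM1 class and by the larger class of JmjC dioxygenases. Methylated lysine 4 of histone H3 (H3K4) marks active promoters and enhancers, and methylated lysines 36 and 79 (H3K36, H3K79) mark transcribed gene bodies. Methylated lysines 9 and 27 (H3K9, H3K27) are linked to silenced chromatin. Chd1 is an ATP-dependent remodeler whose chromodomains bind methylated H3K4, the mark that KMT2 and SETD1 enzymes write and that KDM1A and KDM5 enzymes erase.

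Chd1 itself (chromosome 17, 15704967 to 15772612, mm10) fell, with RPKM of 21.4 and 22.5 in Control versus 10.4 and 11.3 in Chd1KD (ratio of group means 0.49, limma, adjusted p = 0.012). Summed RPKM lay between 459381 and 484490 per library, and the read depth is unknown. Of 12 hepatocyte or hepatoma markers, 9 were tested, 6 lower and 1 higher at an unadjusted p under 0.05 (limma) and none at an adjusted p under 0.05. Hnf4a RPKM was 46.4 and 50.9 in Control versus 35.5 and 40.7 in Chd1KD, Alb RPKM was 18.6 and 55.6 in Control versus 42.2 and 53.02 in Chd1KD, and Afp RPKM was 29.9 and 39.7 in Control versus 55.2 and 58.3 in Chd1KD. The hepatocyte marker Ttr was listed at 0 in every library, which need not mean absence, and Apoa1 and Serpina1b had means under 1 RPKM. Of 23 matched markers of macrophages, endothelium, fibroblasts and lymphocytes, 20 had a mean under 1 RPKM, 14 of them listed at 0 in all libraries. The exceptions were Cd14, Egfl7 and Dcn. Summed RPKM was 1459 and 2332 in Control versus 1039 and 1366 in Chd1KD for the hepatocyte markers, most of it Apoe, and 398 and 442 in Control versus 403 and 395 in Chd1KD for the others, most of it Dcn. The part of these markers in the results was not tested. In bulk RNA, fewer cells of a type and less RNA per cell cannot be told apart.

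Upstream sequence is shown for 4 members on which the results turn, Ezh2, Kdm5b and Kdm2b for their differences between the groups and Kdm3a for the start sites of its 2 measured transcripts. The RefSeq table holds a further Kdm3a window, for a start at 71609139, which is not shown. Kdm2b windows for starts at 122900350, 122988507 and 122989099 are not shown either. The stretches at 122988507 (221 bases) and 122989099 (43 bases) held no CCAAT on either strand. The latter ends 207 bases before its start, so its lack of CCAAT says little about that promoter. Each stretch lies within 250 bases upstream of a RefSeq transcript start on GRCm38.p6, the assembly behind mm10, without bases covered by an annotated exon. All are written 5′ to 3′ on the gene's strand, and capitals mark CCAAT or its reverse complement ATTGG, the box bound by NF-Y.
Ezh2, chr6:47595059-47595183, minus strand: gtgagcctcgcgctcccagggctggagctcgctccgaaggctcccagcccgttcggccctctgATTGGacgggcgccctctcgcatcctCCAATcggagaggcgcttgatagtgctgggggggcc
Kdm5b, chr1:134559928-134560170, plus strand: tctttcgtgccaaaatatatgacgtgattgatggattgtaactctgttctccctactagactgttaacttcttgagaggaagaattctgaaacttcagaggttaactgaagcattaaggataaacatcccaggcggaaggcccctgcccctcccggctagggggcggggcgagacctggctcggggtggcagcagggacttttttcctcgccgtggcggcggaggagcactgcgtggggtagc
Kdm2b internal start, chr5:122900368-122900617, minus strand: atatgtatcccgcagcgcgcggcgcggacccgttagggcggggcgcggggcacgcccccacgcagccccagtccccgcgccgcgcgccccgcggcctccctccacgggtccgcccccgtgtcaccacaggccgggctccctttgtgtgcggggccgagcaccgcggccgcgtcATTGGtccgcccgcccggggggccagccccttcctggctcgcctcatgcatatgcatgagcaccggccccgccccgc
Kdm3a outer start, chr6:71632991-71633167, minus strand: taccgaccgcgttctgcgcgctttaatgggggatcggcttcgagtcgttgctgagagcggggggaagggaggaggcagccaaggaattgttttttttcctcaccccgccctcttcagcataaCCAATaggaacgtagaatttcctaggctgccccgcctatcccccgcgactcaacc
Kdm3a inner start, chr6:71632687-71632837, minus strand: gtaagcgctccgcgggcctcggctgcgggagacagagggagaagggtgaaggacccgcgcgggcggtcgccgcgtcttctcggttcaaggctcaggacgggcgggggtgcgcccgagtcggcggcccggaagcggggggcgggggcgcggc

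The Ezh2 stretch held 2 CCAAT boxes in opposite orientation, the internal Kdm2b and outer Kdm3a stretches held 1 each, and those of Kdm5b and the inner Kdm3a start held none. The RefSeq table gave 32 promoter windows for 24 of the 36 members. CCAAT occurred on either strand within the 250 upstream bases of 10 of the 32 windows, against 33.8% of all 32851 windows. TATAAA occurred in 0 of the 32, against 12.4% of all. The E2F-type words TTTCCCGC, TTTCGCGC, TTTGGCGC and TTTGCCGC occurred on either strand in 2 of the 32, against 1.86% of all. Median GC content was 67.4% in the members' windows against 52.4% in all windows, and the median observed over expected CpG was 0.857 against 0.3735. Such matches describe letters and not bound sites.

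All 36 genes had a mean above 2 RPKM. The highest was Ehmt2 (G9a, an H3K9 methyltransferase), whose RPKM was 50.98 and 53.4 in Control versus 54.3 and 54.97 in Chd1KD (on the log2 scale 0.06 with SE 0.06, limma, unadjusted p = 0.29, adjusted p = 0.57). Suv39h1, which trimethylates H3K9 in heterochromatin, followed at a mean of 48.3 RPKM. The PRC2 core came next, with Ezh2 at a mean of 37.8, Suz12 at 34.1 and Eed at 34.1 RPKM. Among erasers the H3K36 demethylase Kdm2a (mean 30.7 RPKM) and the H3K4 demethylase Kdm1a (mean 28.2 RPKM) were highest. The lowest member was Kmt2c, which methylates H3K4 at enhancers (mean 2.14 RPKM), followed by Kdm7a (3.07 RPKM), Kdm4b (3.75 RPKM) and Suv39h2 (3.895 RPKM).

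Some paralogs stood far apart in level. Others lay close, such as Kdm6a and Kdm6b (means of 7.29 and 8.67 RPKM) and Nsd1, Nsd2 and Nsd3 (16.8, 21.4 and 19.9 RPKM). Ezh2 made up 91.3% and 88.1% in Control versus 86.8% and 87.7% in Chd1KD of the summed RPKM of Ezh1 and Ezh2. Mean RPKM was 48.3 for Suv39h1 against 3.895 for Suv39h2, and 53.4 for Ehmt2 against 12.1 for its partner Ehmt1. Among the H3K4 writers Kmt2d (20.4 RPKM) and Setd1a (18.3 RPKM) were highest, and Kmt2c (2.14 RPKM) and Setd1b (6.13 RPKM) lowest.

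**Figure D1:**
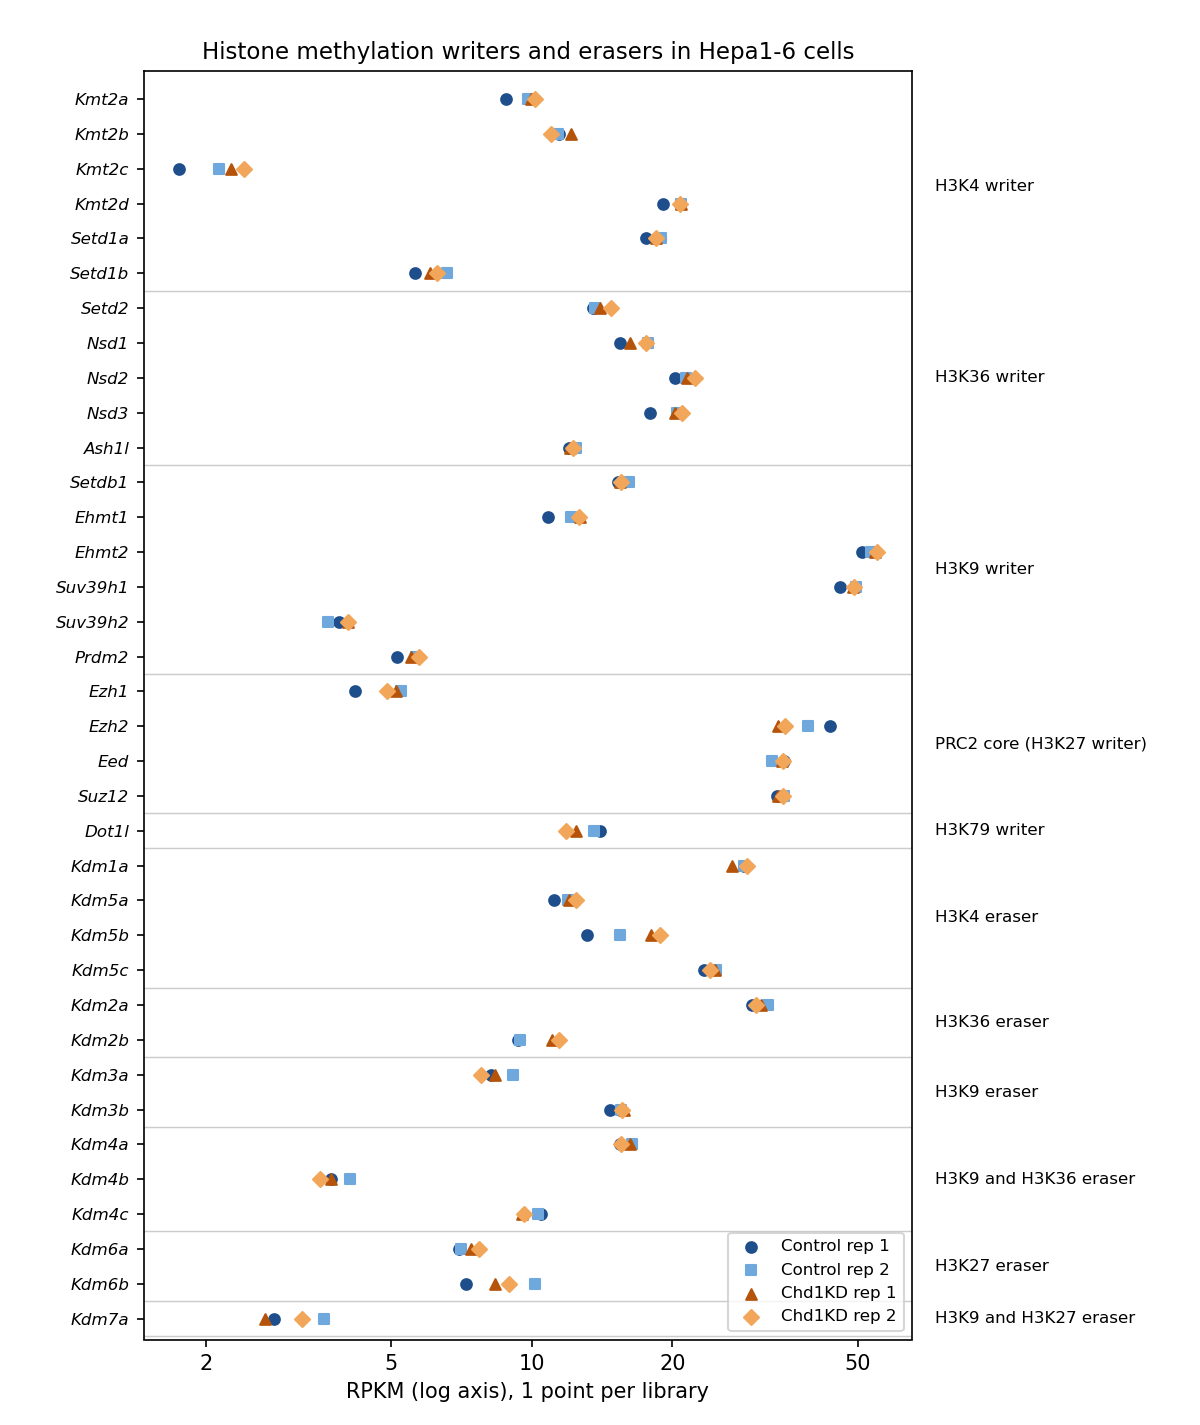
RPKM of each of the 36 members in the 4 libraries (log axis, 1 point per library), grouped by the mark each writes or erases. Means run from 2.14 RPKM (Kmt2c) to 53.4 RPKM (Ehmt2), and the points of most genes lie close together.

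The comparison asked whether the mRNA of these enzymes differed once Chd1 was lowered. None of the 36 was called (limma, Benjamini-Hochberg adjusted p under 0.05), against 47 of 10209 tested genes, 0.46%. In simulated data with the same library numbers, the test called 2.4% of 1.2-fold changes, so most differences of that size would go uncalled. At an unadjusted p under 0.05 there were 4 members, Kdm5b and Kdm2b higher and Ezh2 and Dot1l lower in Chd1KD, against 18.5% of all tested genes. A share of 4 in 36 is below that background. Without Control replicate 2 the number was 8, where 24.2% of all tested genes reached that level. It was 2 without Chd1KD replicate 1 and 2 without Chd1KD replicate 2, where 10.2% and 11.5% of all tested genes did. Group ratios lay between 0.9 and 1.1 for 31 of 36 members and for 64.2% of all tested genes. The libraries of the groups were fully separated for 16 members, 12 higher and 4 lower, against 51.8% of all tested genes (21.3% higher and 30.5% lower).

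**Figure D2:**
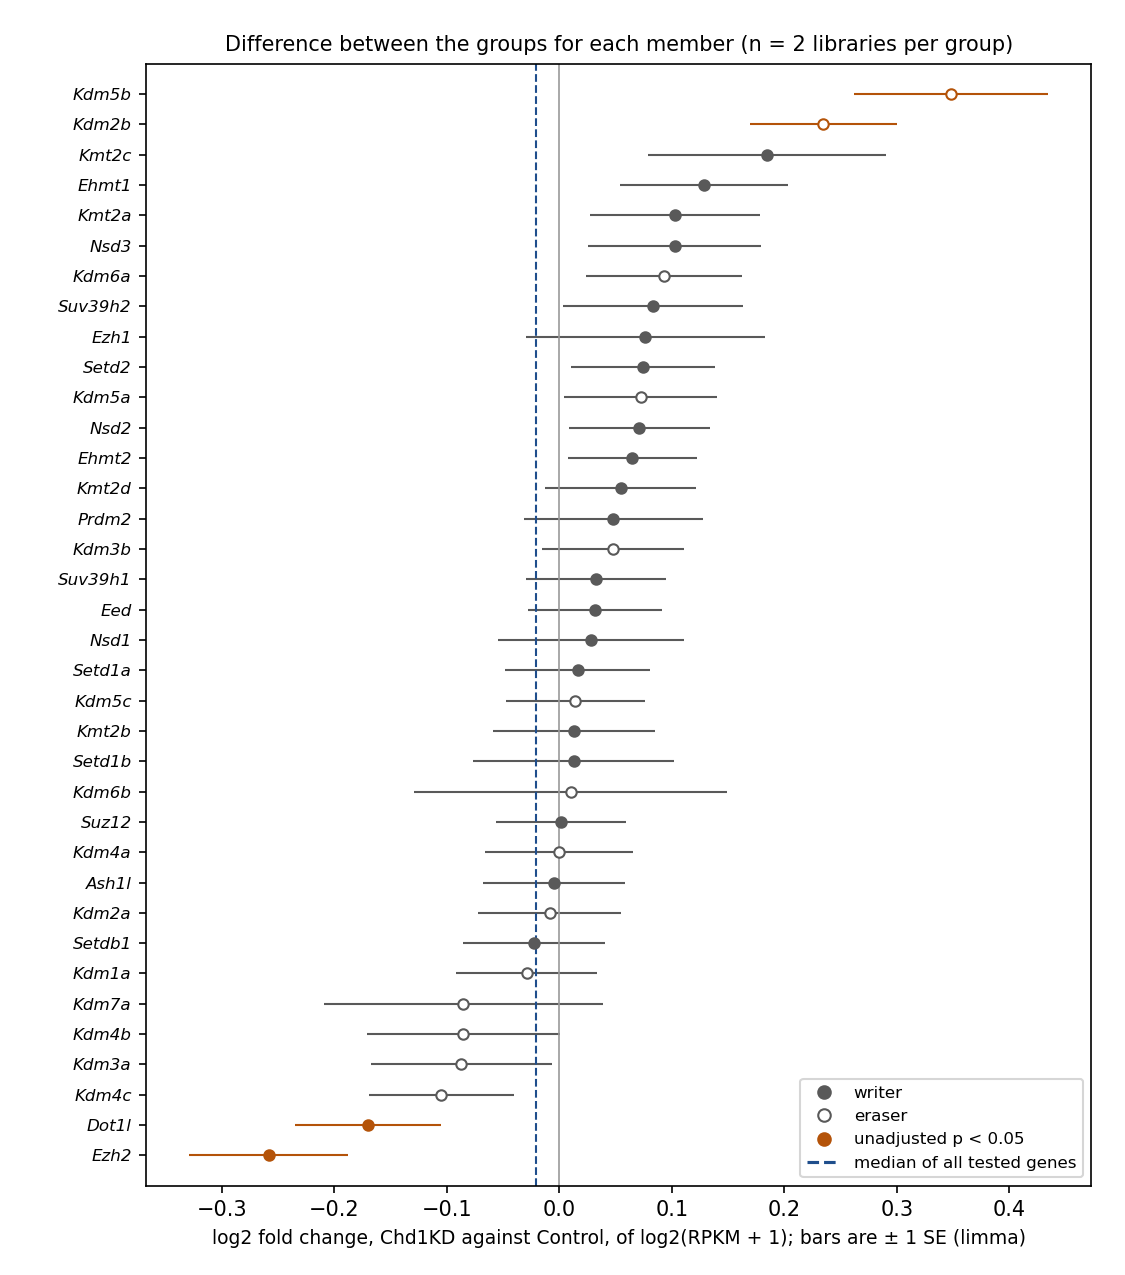
Log2 fold change of each member, Chd1KD against Control, on the log2(RPKM + 1) scale, with bars of 1 SE either side (limma, n = 2 libraries per group). Filled points are writers, open points are erasers, and the dashed line is the median of all tested genes (-0.02). Kdm5b (0.35) and Ezh2 (-0.26) stand at the ends.

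Kdm5b (chromosome 1, 134560178 to 134632878), a JmjC demethylase of H3K4, had the largest positive difference of the 36. Its RPKM was 13.1 and 15.5 in Control versus 18.01 and 18.8 in Chd1KD. Both Chd1KD libraries were above both Control libraries, and Control replicate 1 was the lowest. Group means were 14.3 ± 1.65 and 18.4 ± 0.579 RPKM (SD over 2 libraries, n = 2 per group), and the ratio was 1.29 (on the log2 scale 0.35 with SE 0.09, limma, unadjusted p = 0.0053, adjusted p = 0.12). Without Control replicate 2 the log2 fold change was 0.46 and it was called (limma, adjusted p = 0.033), and without Control replicate 1 it was 0.24 (limma, adjusted p = 0.16). Ratios of the other H3K4 erasers were 1.06 for Kdm5a, 1.01 for Kdm5c and 0.98 for Kdm1a (limma, adjusted p from 0.6 to 0.93). Kdm5b made up 27.5% and 29.6% in Control versus 32.9% and 34.04% in Chd1KD of the summed RPKM of Kdm5a, Kdm5b and Kdm5c.

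Ezh2 (chromosome 6, 47530274 to 47595270), the subunit of PRC2 that methylates H3K27, had the largest negative difference. Its RPKM was 43.6 and 39.02 in Control versus 33.7 and 34.9 in Chd1KD, so both Chd1KD libraries lay below both Control libraries. Group means were 41.3 ± 3.23 and 34.3 ± 0.868 RPKM (SD over 2 libraries, n = 2 per group), and the ratio was 0.83 (on the log2 scale -0.26 with SE 0.07, limma, unadjusted p = 0.0087, adjusted p = 0.15). Without Control replicate 2 the log2 fold change was -0.34 and it was called (limma, adjusted p = 0.049), and without Control replicate 1 it was -0.18 (limma, adjusted p = 0.2). Ratios in the rest of the PRC2 core were 1.022 for Eed, 1.001 for Suz12 and 1.06 for Ezh1 (limma, adjusted p from 0.74 to 0.99). The minor Ezh2 transcript held 14.8% and 14.5% in Control versus 14.8% and 14.4% in Chd1KD of the gene's RPKM. Beside Ezh2, 1 of 15 proliferation genes had a positive fold change, against 43.5% of all tested genes. At an unadjusted p under 0.05 (limma) 8 of the 15 were lower and 1 higher, against 11.3% and 7.24% of all tested genes, and none was called. The median log2 fold change of the 15 was -0.17. Without Control replicate 1 it was -0.09, with 4 positive, and without Control replicate 2 it was -0.23, with 1 positive. Their summed RPKM was 1364 and 1258 in Control versus 1184 and 1155 in Chd1KD. Ratios were 0.999 for Mki67, 0.94 for Top2a and 0.87 for Pcna. The lowest ratios of the list were 0.797 for Mcm2, 0.7998 for Mcm3 and 0.807 for Mcm5, subunits of the replicative helicase, and the highest was 1.17 for the G1/S cyclin Ccne1, all 4 named after their values were seen. The part of proliferation in the Ezh2 values was not tested.

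Kdm2b (chromosome 5, 122870664 to 122989270) demethylates H3K36 and brings a variant Polycomb complex to CpG islands through its CXXC domain. Its RPKM was 9.34 and 9.44 in Control versus 11.03 and 11.4 in Chd1KD. The groups were separated and the libraries within each lay close together, with means of 9.39 ± 0.0762 and 11.2 ± 0.281 RPKM (SD over 2 libraries, n = 2 per group) and a ratio of 1.196 (on the log2 scale 0.23 with SE 0.07, limma, unadjusted p = 0.0092, adjusted p = 0.15). Its paralog Kdm2a had a ratio of 0.99. Dot1l (chromosome 10, 80755101 to 80795461) is the main H3K79 methyltransferase, and its RPKM was 13.97 and 13.6 in Control versus 12.4 and 11.8 in Chd1KD. Both Chd1KD libraries were below both Control libraries, a ratio of 0.88 (on the log2 scale -0.17 with SE 0.06, limma, unadjusted p = 0.035, adjusted p = 0.24). Kmt2c (chromosome 5, 25271795 to 25498855) was chosen for its ratio of 1.204, and its RPKM was 1.75 and 2.13 in Control versus 2.27 and 2.41 in Chd1KD (on the log2 scale 0.18 with SE 0.11, limma, unadjusted p = 0.13, adjusted p = 0.39). Without Control replicate 1 the Kmt2c log2 fold change was 0.09.

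**Figure D3:**
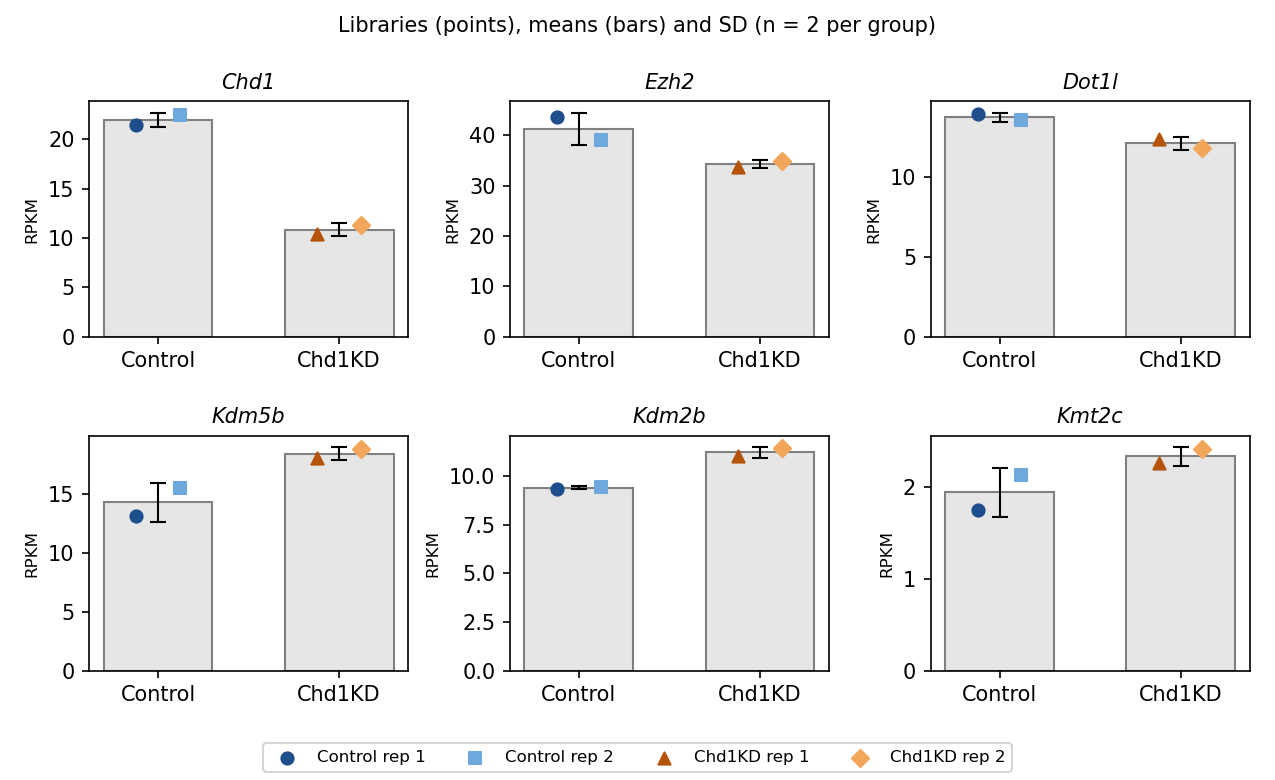
RPKM of Chd1 and of 5 members in each library (points), with the group mean (bar, from 0) and SD (n = 2 per group). Chd1 means are 21.96 in Control and 10.8 in Chd1KD, and the members' ratios run from 0.83 (Ezh2) to 1.29 (Kdm5b).

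The H3K4 writers, whose product Chd1 reads, had ratios from 1.01 (Setd1b) to 1.204 (Kmt2c), and none of the 6 reached an unadjusted p under 0.05 (limma). Kmt2a, the founding MLL gene, had RPKM of 8.802 and 9.84 in Control versus 9.97 and 10.2 in Chd1KD. Its groups were separated by a small margin. Kmt2b, its closest paralog, had RPKM of 11.5 and 11.4 in Control versus 12.1 and 10.99 in Chd1KD, and the groups overlapped. Kmt2d, an enhancer H3K4 methyltransferase, had a ratio of 1.04, and Setd1a, a promoter H3K4 methyltransferase, of 1.01. Summed RPKM of the 6 was 64.3 and 69.8 in Control versus 69.7 and 68.99 in Chd1KD. All 6 fold changes were positive, and their median was 0.04 where that of all tested genes was -0.02, but 3 were positive without Control replicate 1.

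The 5 H3K36 writers had ratios from 0.996 (Ash1l) to 1.08 (Nsd3), with none at an unadjusted p under 0.05 (limma). Setd2, which trimethylates H3K36 behind elongating polymerase, had RPKM of 13.5 and 13.6 in Control versus 13.98 and 14.8 in Chd1KD. Nsd1 and Nsd2, which write lower methylation states, had ratios of 1.019 and 1.05. The 6 H3K9 writers ran from 0.98 (Setdb1) to 1.0996 (Ehmt1), also with none at an unadjusted p under 0.05, and Suv39h1, Suv39h2 and Prdm2 had ratios of 1.023, 1.07 and 1.04. Among erasers of both H3K9 and H3K36, Kdm4a, Kdm4b and Kdm4c had ratios of 0.9996, 0.93 and 0.92, with separated groups for Kdm4b and Kdm4c. The H3K9 erasers Kdm3a and Kdm3b had ratios of 0.93 and 1.04, and Kdm7a, an eraser of H3K9 and H3K27, of 0.92. The H3K27 erasers Kdm6a and Kdm6b had ratios of 1.08 and 0.995. Kdm6b RPKM was 7.22 and 10.2 in Control versus 8.34 and 8.95 in Chd1KD, with the Chd1KD libraries between the Control libraries.

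Positive fold changes were found for 25 of the 36 members, against 43.5% of all tested genes, with a median of 0.03. Control replicate 1 was the lowest library for 26 of 36 members, against 21% of all tested genes. Control replicate 2 exceeded Control replicate 1 for 29 of 36 members, against 40.7% of all tested genes. The median difference between these Control libraries was 0.09 on the log2(RPKM + 1) scale for the members, and -0.03 for all tested genes. For the members this exceeds the median difference between the groups. Without Control replicate 1, 15 of 36 were positive, against 4899 of 10209 tested genes. The median was then -0.02 for the members and -0.01 for all tested genes. Without Control replicate 2, 29 members were positive, and the median was 0.08 for the members and -0.03 for all tested genes.

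Transcript length moved with the difference between the Control libraries, and the members' transcripts are long. Their median length was 6149 nt, from 2067 nt (Eed) to 19823 nt (Kmt2d), against 2918 nt over all tested genes. With the 10046 tested genes of known length divided into 5 equal groups from short to long, the median Control difference was -0.10, -0.07, -0.04, -0.01 and 0.04. The longest group held 21 of the 36 members and the shortest held none. After a length trend was removed from each library, 21 of 36 members were positive, against 5038 of 10046 tested genes. The members' median was then 0.01, and 3 of the 6 H3K4 writers were positive. With that trend removed no member was called (limma), 4 were at an unadjusted p under 0.05, and the log2 fold change was 0.32 for Kdm5b (adjusted p = 0.089), -0.23 for Ezh2 (adjusted p = 0.12), 0.25 for Kdm2b, -0.18 for Dot1l and 0.12 for Kmt2c.

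**Figure D4:**
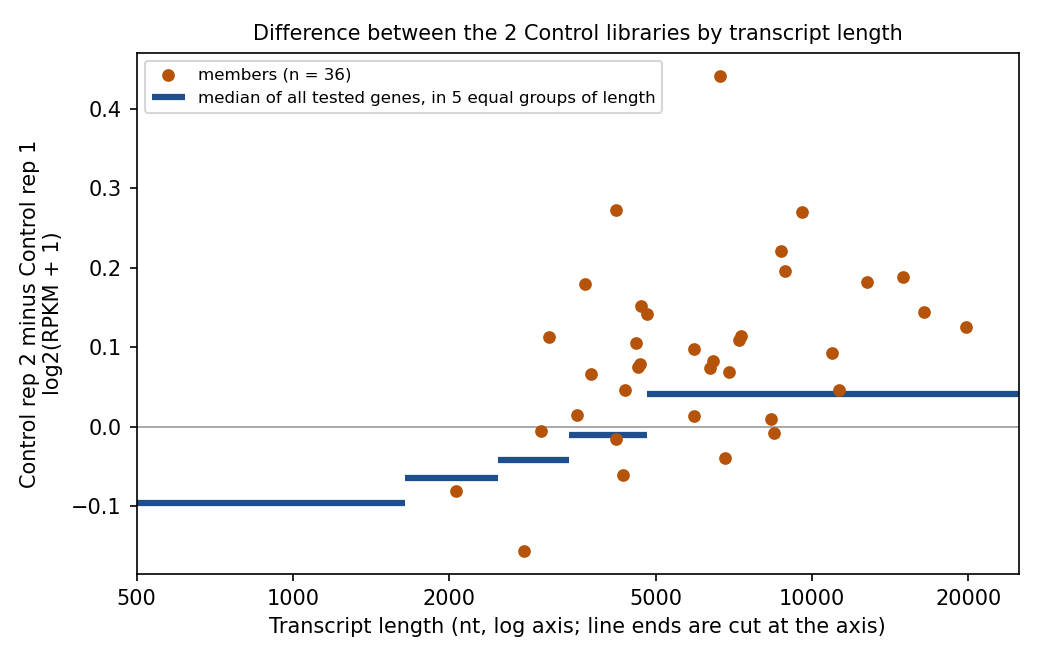
Difference between the Control libraries (replicate 2 minus replicate 1, log2(RPKM + 1)) against transcript length (log axis) for the 36 members (points), with medians of all tested genes in 5 equal groups of length (lines). The medians go from -0.10 in the shortest to 0.04 in the longest group, and 29 of 36 members lie above 0.

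The deposited values are per transcript, and 13 of the 36 members had more than 1 RefSeq transcript. For Kdm2b, a transcript of 2328 nt coding length that starts inside the gene held 89.4% and 88.7% in Control versus 85.4% and 86.3% in Chd1KD. The longer form (3927 nt coding length) had RPKM of 0.993 and 1.06 in Control versus 1.61 and 1.57 in Chd1KD. The log2 ratio of longer to shorter form differed by 0.17 (SE 0.18, limma, unadjusted p = 0.39, adjusted p = 0.91). The short KDM2B form keeps the CXXC domain and lacks the JmjC domain that carries demethylase activity. For Nsd3, the form of 1965 nt coding length, which lacks the SET domain, held 72.8% and 74.2% in Control versus 70.9% and 73.7% in Chd1KD. For Ehmt2 the form of 3516 nt coding length held 61.4% and 61.01% in Control versus 59.96% and 60.1% in Chd1KD. Shares of Nsd3 and Ehmt2 differed little between the groups.

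Kdm3a (chromosome 6, 71588970 to 71632990), a JmjC demethylase of H3K9, had RPKM of 8.16 and 9.11 in Control versus 8.34 and 7.79 in Chd1KD in sum (limma, adjusted p = 0.59), while its transcripts differed in opposite directions. The transcript from the outer start had RPKM of 4.13 and 5.66 in Control versus 6.38 and 6.16 in Chd1KD. The transcript from the inner start had RPKM of 4.03 and 3.44 in Control versus 1.96 and 1.63 in Chd1KD. Both have a coding length of 3969 nt and they begin with different first exons. The outer form held 50.6% and 62.2% in Control versus 76.5% and 79.1% in Chd1KD, without overlap of the groups. The log2 ratio of outer to inner form differed by 1.08 (SE 0.25, limma over 2467 ratios, unadjusted p = 0.009, adjusted p = 0.83) and by 0.80 to 1.35 with 1 library left out. Setdb1, an H3K9 methyltransferase that acts with KRAB zinc finger proteins, has a minor transcript with RPKM of 2.85 and 2.53 in Control versus 1.29 and 0.989 in Chd1KD. Its main transcript had RPKM of 12.01 and 13.4 in Control versus 13.9 and 14.04 in Chd1KD. The minor and main Setdb1 forms each have 22 exons, with lengths of 4573 and 4622 nt. Their coding lengths are 3921 and 3924 nt, so few reads may tell them apart. Of 14 member ratios tested, 3 had an unadjusted p under 0.05 (limma), against 5.59% of all ratios (138 of 2467). They came from Kdm3a and from both the minor and the main Setdb1 transcript. The Setdb1 ratios are near mirror images, so they count largely the same shift. No ratio of any gene was called (limma, 0 of 2467). Kdm3a and Setdb1 were picked after their values were seen, and the division of shared reads between transcripts is not described in the sources.

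**Figure D5:**
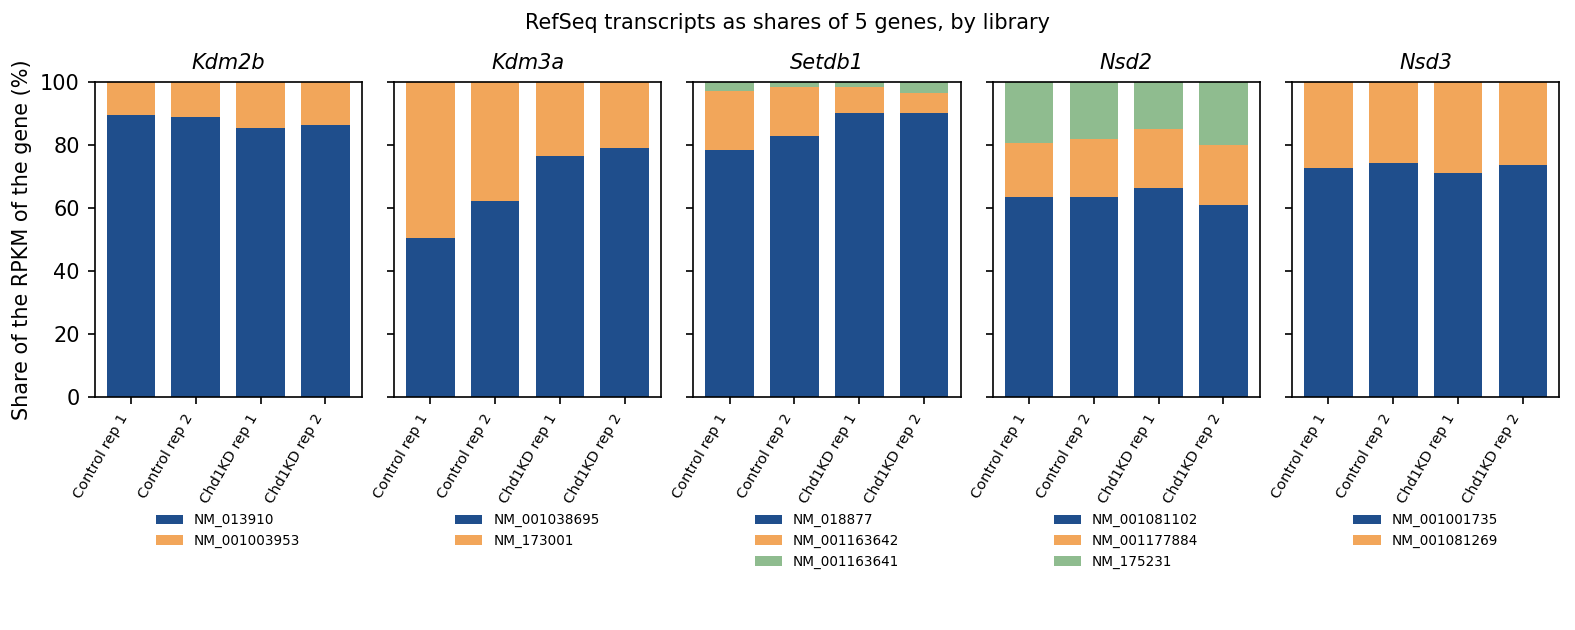
Share of each gene's RPKM held by its RefSeq transcripts in each library, in percent, for 5 members. The outer Kdm3a form (NM_001038695) holds 50.6% and 62.2% in Control and 76.5% and 79.1% in Chd1KD.

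Of 82 tested partner genes of the pathway (89 listed, 88 matched), 1 was called, Chd1 itself (limma), against 0.46% of all tested genes. Without Chd1, the target of the shRNA, 6 of 81 were higher and 14 lower at an unadjusted p under 0.05 (limma), against 7.24% and 11.3% of all tested genes. Among 12 subunits of the KMT2 and SETD1 complexes, 9 fold changes were negative (median -0.11), and Cxxc1, Pagr1a and Psip1 had an unadjusted p under 0.05, with ratios of 0.90, 0.89 and 0.91. Among 8 genes listed as arginine methyltransferases, including the PRMT5 cofactor Wdr77, 4 were lower at an unadjusted p under 0.05 and the median was -0.11. That median was -0.06 without Control replicate 1 and -0.17 without Control replicate 2. None of 7 tested PRC2 accessory subunits reached an unadjusted p under 0.05 (limma).

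Chd1 aside, the partners with the smallest p among higher values were Setd7, Ing5, Setd3 and Rcor1. Setd7, an H3K4 monomethyltransferase that also modifies other proteins, had RPKM of 22.7 and 22.5 in Control versus 27.96 and 27.7 in Chd1KD (ratio 1.23, limma, adjusted p = 0.093). Ing5, a reader of trimethylated H3K4 in acetyltransferase complexes, had RPKM of 7.43 and 8.11 in Control versus 10.02 and 10.3 in Chd1KD (ratio 1.31, limma, adjusted p = 0.1). Setd3, which methylates a histidine of actin, had RPKM of 25.7 and 25.5 in Control versus 30.4 and 29.8 in Chd1KD (ratio 1.18, limma, adjusted p = 0.13). Rcor1, the CoREST scaffold that brings KDM1A to nucleosomes, had RPKM of 9.67 and 11.4 in Control versus 12.7 and 14.2 in Chd1KD (ratio 1.28, limma, adjusted p = 0.15). For each of these 4 genes both Chd1KD libraries were above both Control libraries, as for 21.3% of all tested genes. These 4 were chosen by their p-values, which favours separated groups, so the 2 shares cannot be compared. Rcor2, the paralog of Rcor1, was among the 4 with the smallest p among lower values. Its RPKM was 3.46 and 3.002 in Control versus 2.53 and 1.93 in Chd1KD (ratio 0.69, limma, adjusted p = 0.17). The JmjC protein Kdm8 had RPKM of 5.11 and 4.59 in Control versus 3.56 and 3.79 in Chd1KD (ratio 0.76, limma, adjusted p = 0.14). The arginine methyltransferases completed the group, Prmt3 with RPKM of 25.4 and 23.4 in Control versus 20.9 and 20.99 in Chd1KD (ratio 0.86, limma, adjusted p = 0.18) and Prmt7 with RPKM of 27.8 and 25.6 in Control versus 23.2 and 22.9 in Chd1KD (ratio 0.86, limma, adjusted p = 0.18). For the 4 lower genes both Chd1KD libraries were below both Control libraries, as for 30.5% of all tested genes. The same limit of choice by p-value holds there. None of these 8 genes was called.

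Of the 36 members, 8 overlap another annotated protein-coding gene, among them Kdm2b (with Rnf34) and Setdb1 (with Cers2). The strand setting of the counting is unstated, so the reads of overlapping partners may mix. Kdm5b, Ezh2, Dot1l and Kdm3a overlap no other protein-coding gene.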

How the data were processed

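Libraries were grouped by their titles. The authors deposited RPKM for 30582 RefSeq transcript rows, per the file headers. TopHat 1.4.1, Cufflinks 1.3.0 and mm10 are named in the submitters' processing notes. For annotation release, strand setting and read depth nothing was given in the sources. Each of the 4 single-library tables matched its column in the series table, which was used.

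NCBI's GRCm38.p6 table named 30003 rows and GENCODE M21 another 180, and 399 stayed unnamed. RPKM was summed by gene. Tests used limma 3.58.1 (R 4.3.3) with a variance trend on log2(RPKM + 1), for the 10209 genes whose mean was 1 RPKM or more, adjusted by Benjamini-Hochberg over those genes. This scale understates changes of low genes, whereas ratios use group means with no pseudocount. The code was tested on simulated data, with 200 of 10209 genes raised per draw. The test called 2.4% of 1.2-fold, 96.6% of 1.5-fold and 99.6% of 2-fold changes. At 1.2-fold, 34.2% of the calls were false, at 1.5-fold 8.69% and at 2-fold 7.74%. The simulated noise was independent for each gene and library, without library differences that many genes share. The shares called therefore need not hold in the real data. With 2 libraries a side the smallest two-sided exact permutation p is 0.333, so none was run. Transcript ratios, log2 of (transcript + 1) over (other transcripts of the gene + 1), were tested with limma without a trend where both means reached 1 RPKM. Lengths and coding lengths came from GENCODE M21, and the length trend was a lowess with span 0.3. Sequences are RefSeq's. Figures were drawn with matplotlib 3.10.9.

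The members and gene lists were chosen with earlier results of these data known. Library values follow a rule: members with an unadjusted p under 0.05 or a ratio of 1.2 in either direction, the highest and lowest members, and, beside Chd1, which was called, the 4 other partners with the smallest p in each direction. Other members named illustrate their role and were picked after their values were seen. The length and transcript tests were chosen after seeing the data. Alternatives covered the pseudocount, filter, scaling, variance model, replicate block, transcript choice and each library left out.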

Additional observations from a re-analysis of the deposited data

How the results depend on the processing

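Depth is unknown, so no counting interval can be given, and 2 libraries per group limit every test. The number of genes called over all tested genes (47, limma) was 0 without a filter on low values (2153 genes at an unadjusted p under 0.05), 71 with a filter at 5 RPKM, 6 without a variance trend, 92 with a robust trend, 12 with the most abundant transcript, 75 with genes listed at 0 left out, and from 49 to 236 with 1 library left out. Members called stayed at 0 under every setting except the replicate block (1, Kdm5b) and without Control replicate 2 (2, Kdm5b and Ezh2), so from 0 to 2 with 1 library left out. Members at an unadjusted p under 0.05 numbered 4 under each other setting and from 2 to 8 with 1 library left out. Partner genes called were 0 without a filter and 4 with the replicate block. Chd1 had a log2 fold change of -0.96 with an adjusted p of 0.25 (limma) without a filter and passed under each of the other 17 settings.

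The shared replicate numbers carry no stated pairing; deviations from the group means of same-numbered libraries correlated across genes at r = 0.22. With the replicate block, 325 genes were called over all genes and Kdm5b kept its log2 fold change of 0.35 (limma, adjusted p = 0.048). Kdm5b, Ezh2, Kdm2b, Dot1l, Kmt2c and Ehmt2 kept their sign under every setting in which they were tested. Kmt2c was not tested with the filter at 5 RPKM. With that filter 31 of the 36 members were tested, so its counts of members are out of 31. Of all 36 members, 10 changed sign without Control replicate 1, 6 without Control replicate 2, 5 and 6 without Chd1KD replicates 1 and 2, 6 with the length trend removed, and 3 each with quantile normalization, median centring and the most abundant transcript.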

Other observations

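Some pathway genes lay below the test's filter. Hr, the JmjC corepressor hairless, had a mean of 0.992 RPKM, just under the limit, with RPKM of 1.31 and 1.46 in Control versus 0.617 and 0.5802 in Chd1KD. It was named after its values were seen and has no test. The Y-linked demethylases Kdm5d and Uty and the PRC2 accessory subunit Epop were listed at 0 in every library. The PRC2 accessory subunit Phf19 was listed at 0 in all libraries except Chd1KD replicate 1 (0.0284 RPKM). The demethylase Kdm4d was at or indistinguishable from 0 in every library.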
